A study of Mus musculus with 30 samples.

Results

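Osteoclasts from Terc-/- mice were compared with osteoclasts from wild-type mice at 1 month of age. The comparison uses 6 of the 30 libraries of the series, 3 labelled Terc-/- and 3 labelled wild type, each group with replicates 1, 3 and 4. They were chosen by title, as the 1-month libraries of large multinucleated cells whose titles carry neither the word 519 nor the word gaiwei, which the labels do not explain. In both groups the strain is given as C57BL/6J. Bone marrow-derived macrophages of both genotypes were cultured on bone slices with M-CSF and RANKL until large multinucleated cells had formed, and their RNA was sequenced in bulk. The labels name no other allele and no Cre, and they do not state the sex of the mice, the number of generations the Terc-/- line had been bred, or whether a library is 1 animal, 1 culture or a pool. The p-values below therefore measure only the spread between libraries of a group, which may be technical. That spread was estimated over all 30 libraries of the series, not over these 6 alone. Values after ± are standard errors from the same shared spread. Terc-/- and wild-type libraries at 6 months, 3 each with the same culture conditions, share no library with the 1-month groups and are set beside them where stated.

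Terc is the RNA component of telomerase and carries the template from which telomere repeats are copied, and mice without it lose telomere sequence over generations of breeding. Osteoclasts are giant cells formed by fusion of macrophage-lineage precursors. RANKL, acting through NFATc1, switches on the genes for attachment to bone, for acid secretion and for the proteases that dissolve bone matrix.

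The libraries were first checked against their labels. Terc (ENSMUSG00000064796, chr3:96414437-96414859 in mm10, minus strand, a noncoding RNA gene) was listed at 0, 0 and 0 TPM (transcripts per 1000000) in the Terc-/- libraries, against 0, 0 and 1.13 TPM in the wild-type libraries. Terc RNA is not polyadenylated and the libraries were purified on oligo(dT) beads, so its level could not check the genotype. Xist, the RNA of the inactive X chromosome, was at 0, 0.00400 and 0.00834 TPM in the Terc-/- libraries, against 46.6, 71.1 and 84.1 TPM in the wild-type libraries. The Y-linked gene Eif2s3y was at 14.4, 13.8 and 19.2 TPM in the Terc-/- libraries and at 0, 0 and 0 TPM in the wild-type libraries. The Terc-/- libraries thus had a male pattern and the wild-type libraries a female pattern, and at 1 month the genotype and the sex pattern cannot be told apart. At 6 months Xist was at 0, 0 and 0 TPM in the Terc-/- libraries and at 0.0133, 0 and 0.00299 TPM in the wild-type libraries, and Eif2s3y was at 82.0, 63.0 and 61.1 TPM in the Terc-/- libraries and at 59.2, 52.4 and 50.5 TPM in the wild-type libraries. Both 6-month groups had the male pattern, so the sex pattern does not separate the genotypes there.

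The cultures had the genes of osteoclasts. Ctsk, the collagen-degrading protease of osteoclasts, stood at 2545, 2995 and 2518 TPM in the Terc-/- libraries, against 4859, 3998 and 4626 TPM in the wild-type libraries. Acp5, the acid phosphatase behind the TRAP stain, stood at 4169, 5395 and 4061 TPM in the Terc-/- libraries, against 6068, 4652 and 5875 TPM in the wild-type libraries. The Ctsk levels of the groups did not overlap and those of Acp5 did, and neither gene passed the test, although Ctsk was called lower in 3 of the 19 alternative settings described below and Acp5 in 1 (Ctsk log2 change -0.71 ± 0.28, limma adjusted p = 0.0554; Acp5 -0.25 ± 0.31, limma adjusted p = 0.586). Of 10 T and NK cell markers, 7 were at 0 in all 6 libraries, among them Cd3e, a subunit of the T cell receptor complex, and the list summed to 6.01, 7.22 and 8.55 TPM in Terc-/-, against 14.5, 9.79 and 11.1 TPM in wild type. The B cell markers summed to 8.49, 5.70 and 4.77 TPM in Terc-/-, against 1.63, 2.42 and 2.25 TPM in wild type. Most of the B cell sum was a single gene in every library, Ighm, given below, and 6 of the 8 markers were too low to be tested. Neither sum overlapped between the groups, and the part of these cells in the differences below was not tested. Markers of stromal cells and osteoblasts are given with the matrix genes. The 3 Terc-/- libraries lay closer to each other than the 3 wild-type libraries did, with a median standard deviation per gene of 0.149 on the log2 scale in Terc-/- and 0.236 in wild type. Wild-type replicate 1 stood apart from wild-type replicates 3 and 4 in several of the gene groups below.

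Of 12614 genes tested, 3900 (30.9%) were called, meaning an adjusted p under 0.05 in limma, 1950 of them higher in Terc-/- (15.5%) and 1950 lower (15.5%). The 3 and 3 libraries did not overlap for 5112 genes (40.5%). Changes of at least 2-fold were more often falls: 302 called genes were at least 2-fold higher in Terc-/- and 635 at least 2-fold lower. The fold changes are on a log2(TPM + 1) scale, which understates the change of low genes, and the median over all genes tested was 0.005. Because the spread was estimated over all 30 libraries, the calls were also repeated under 19 alternative settings, and 1274 genes (10.1% of those tested) were called in the same direction in every one, 517 higher (4.10%) and 757 lower (6.00%). The genes described below were called in all 19 unless stated otherwise. Several of the lists below had a called share near the 30.9% of all genes tested. It was 27.3% for resorption genes, 35.7% for osteoclast transcription factors, and 38.5% each for fusion genes, lysosomal genes and iron and metal genes. It was 31.2% for genes of CDK inhibitors and senescence and 35.3% for macrophage markers. It was 32.0% for cytokine and acute phase genes, 33.3% for heat shock genes and 25.0% for glycolysis and hypoxia genes. RNA was measured in bulk, so fewer cells of a type and less RNA per cell cannot be told apart in any of these differences.

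Outside the sex-linked genes, the list of extracellular matrix genes had the largest median change of the lists examined. All lists and their members were chosen with earlier results of these data known, so this ranking describes the lists and is not a test. Of 26 collagen and matrix genes tested, 20 fell in Terc-/- and all 20 did so in every setting, while 1 rose, and the median log2 change was -2.34. Col1a1, a chain of type I collagen, was at 28.1, 58.3 and 67.5 TPM in the Terc-/- libraries, against 233, 577 and 735 TPM in the wild-type libraries. The highest Terc-/- library was well below the lowest wild-type library. Its log2 change was -3.20 ± 0.36 (limma adjusted p = 7.68e-07), and its partner chain Col1a2 changed by -3.24 ± 0.37 (limma adjusted p = 1.09e-06). Col3a1, the type III collagen chain, was at 3.45, 11.6 and 9.66 TPM in Terc-/-, against 36.3, 132 and 235 TPM in wild type, a log2 change of -3.60 ± 0.44. Loxl2, an enzyme that crosslinks collagen, was at 6.21, 11.6 and 18.5 TPM in Terc-/-, against 76.5, 286 and 331 TPM in wild type, a log2 change of -3.97 ± 0.39 (limma adjusted p = 1.32e-07). Sparc, a secreted collagen-binding protein of bone, changed by -2.86 ± 0.34. For each of these 5 genes the 3 and 3 libraries did not overlap and wild-type replicate 1 was the lowest wild-type library.

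Several of the 12 largest falls outside the list were also matrix genes. Mfap5, a protein of elastic microfibrils, was at 1.37, 1.24 and 2.21 TPM in Terc-/-, against 37.2, 123 and 145 TPM in wild type, a log2 change of -5.04 ± 0.42 (limma adjusted p = 1.38e-08). Fbn1, the fibrillin that forms those microfibrils, changed by -3.56 ± 0.48, and Thbs2, a matrix glycoprotein, by -3.72 ± 0.49. Cd248, a surface glycoprotein of fibroblasts and pericytes, was at 1.79, 3.61 and 5.20 TPM in Terc-/-, against 21.4, 81.2 and 83.1 TPM in wild type, and changed by -3.59 ± 0.44. The largest fall of all under the naming rule was Crabp2, which carries retinoic acid to its nuclear receptors, at 1.58, 2.76 and 1.92 TPM in Terc-/-, against 103, 318 and 319 TPM in wild type. Its log2 change was -6.11 ± 0.40 (limma adjusted p = 2.69e-10). That the groups did not overlap was required by the naming rule for all of these largest falls. Medag, a gene that promotes fat cell formation, was at 0.0306, 0.339 and 0.109 TPM in Terc-/-, against 4.06, 18 and 25.1 TPM in wild type, a log2 change of -3.45 ± 0.31.

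Contractile and cytoskeletal genes of the smooth muscle and myofibroblast program moved the same way. Of 11 tested, 9 fell and none rose, 8 fell in every setting, and the median log2 change was -2.06. Tagln, an actin-binding protein of smooth muscle, was at 118, 139.9 and 279.8 TPM in Terc-/-, against 823, 1097 and 963 TPM in wild type, a log2 change of -2.48 ± 0.38 (limma adjusted p = 3.1e-05). Tpm1, a tropomyosin, was at 349, 361 and 525 TPM in Terc-/- and 876, 1195 and 1216 TPM in wild type, a log2 change of -1.38 ± 0.22. Ccn2 and Ccn1 encode secreted proteins that are standard targets of YAP, and both were on this list. Ccn2 was at 73.5, 124 and 230.0 TPM in Terc-/-, against 528, 855 and 862 TPM in wild type, a log2 change of -2.47 ± 0.30, and Ccn1 changed by -2.06 ± 0.30. Terc-/- replicate 4 was the highest Terc-/- library for all 4 genes and still lay below every wild-type library.

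The list totals show the same separation. The summed level of the matrix list was 1011, 1564 and 2400 TPM in the Terc-/- libraries, against 4758, 10689 and 13668 TPM in the wild-type libraries. The contractile list summed to 902, 1059 and 1767 TPM in Terc-/-, against 4092, 5620 and 5477 TPM in wild type. With each library left out in turn, the matrix median ranged from -2.99 (without wild-type replicate 1) to -2.14 (without wild-type replicate 4). The contractile median ranged from -2.45 (without Terc-/- replicate 4) to -1.70 (without Terc-/- replicate 1). Beside these falls stands a list of stromal and osteoblast markers, which leaves out Col1a1, counted here with the matrix genes. Of its 8 members tested, 4 were called lower, none in every setting. The falls numbered 2 without wild-type replicate 3 and 1 without Terc-/- replicate 1 or wild-type replicate 4. Of the 15 listed, 7 were under the filter on low values. All 15 markers summed to 11698, 7680 and 9342 TPM in Terc-/-, against 7096, 7835 and 5740 TPM in wild type. Without Spp1, which osteoclasts also make, the other 14 markers summed to 21.2, 27.7 and 34.7 TPM in Terc-/-, against 32.3, 57.0 and 66.6 TPM in wild type. The groups overlapped in both sums. The part of stromal cells and osteoblasts in the matrix and contractile differences was not tested.

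**Figure D1:**
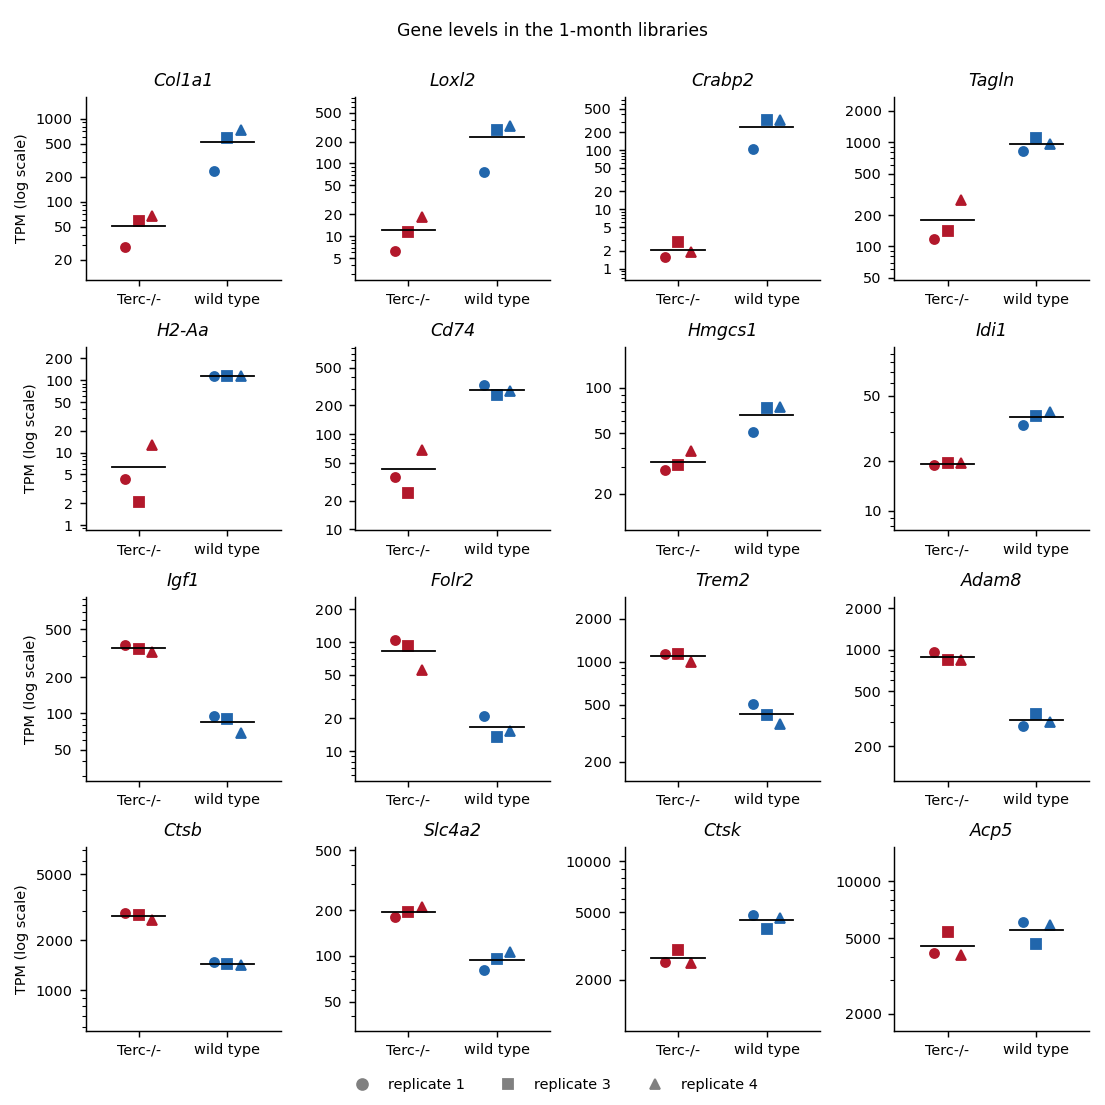
Levels of 16 genes in TPM on a log axis, Terc-/- libraries in red left of wild-type libraries in blue; the point shape gives the replicate and the bar the group mean. The matrix, contractile and MHC class II genes are lower in Terc-/- without overlap, Igf1, Folr2, Trem2, Adam8, Ctsb and Slc4a2 are higher without overlap, and the groups overlap for Acp5.

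The genes of MHC class II, which present peptides to CD4+ T cells and are made by antigen-presenting cells such as macrophages and dendritic cells, were lower. Of 11 tested genes on the list of MHC class II and the interferon gamma response, 8 fell and 1 rose, 4 fell in every setting, the median log2 change was -0.49, and 4 of the 15 listed genes were under the filter. The falls numbered 4 without Terc-/- replicate 1 and 5 without wild-type replicate 1. The 4 that fell in every setting were the class II genes themselves. H2-Aa, an alpha chain of class II, was at 4.30, 2.11 and 12.9 TPM in Terc-/-, against 114, 116 and 115 TPM in wild type, a log2 change of -4.20 ± 0.44 (limma adjusted p = 3.18e-07). H2-Eb1, a beta chain, was at 4.70, 1.84 and 10.1 TPM in Terc-/-, against 74.4, 58.8 and 75.7 TPM in wild type, a log2 change of -3.60 ± 0.42 (limma adjusted p = 1.56e-06). The other beta chain, H2-Ab1, was at 7.40, 5.36 and 20.8 TPM in Terc-/- and 87.0, 72.5 and 76.4 TPM in wild type, a log2 change of -2.88 ± 0.41. The wild-type libraries were nearly level with each other for these genes, while Terc-/- replicate 4 was the highest and replicate 3 the lowest of the Terc-/- libraries. Cd74, the invariant chain that escorts class II to the lysosome, was at 35.2, 24.4 and 68.9 TPM in Terc-/-, against 331, 257 and 282 TPM in wild type, a log2 change of -2.82 ± 0.39 (limma adjusted p = 1.03e-05).

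Genes of the dendritic cell and macrophage lineages stood beside these falls without a single direction. Ccr7, the chemokine receptor of migrating dendritic cells, was at 0.301, 0.205 and 2.16 TPM in Terc-/-, against 13.3, 12.1 and 8.38 TPM in wild type, a log2 change of -2.77 ± 0.38, and was 1 of 2 dendritic cell markers tested, the other 7 listed being under the filter. Ccl22, a chemokine of dendritic cells and macrophages and 1 of the 12 largest falls, was at 1.77, 1.62 and 9.72 TPM in Terc-/-, against 62.4, 59.5 and 35.4 TPM in wild type, a log2 change of -3.56 ± 0.44. The dendritic cell markers summed to 27.7 to 38.0 TPM in Terc-/-, against 36.3 to 45.3 TPM in wild type. Of 17 macrophage markers tested, 5 rose (3 without Terc-/- replicate 1) and 1 fell, with a median log2 change of 0.44, and their summed level was 43627 to 48037 TPM in Terc-/-, against 27949 to 33839 TPM in wild type. Adgre1, the F4/80 antigen, rose by 1.06 ± 0.21 on the log2 scale, and Mrc1, the mannose receptor, changed by -1.01 ± 0.23. The part of these cell types in the class II difference was not tested.

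The stretches before the start sites of H2-Aa and H2-Eb1 are shown because both genes fell together and because class II promoters share a CCAAT element called the Y box. Each is the 250 bases before the gene's start in RefSeq (GRCm38.p6), 5′ to 3′ on the gene's strand, from chr17:34287824-34288073 (minus strand) and chr17:34305617-34305866 (plus strand), and capitals mark CCAAT or its reverse ATTGG.
H2-Aa: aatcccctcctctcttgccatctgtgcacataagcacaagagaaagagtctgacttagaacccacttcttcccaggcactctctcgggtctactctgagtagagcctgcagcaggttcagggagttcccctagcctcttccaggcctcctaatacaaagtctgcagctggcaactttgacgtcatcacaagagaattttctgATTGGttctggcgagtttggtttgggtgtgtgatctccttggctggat
H2-Eb1: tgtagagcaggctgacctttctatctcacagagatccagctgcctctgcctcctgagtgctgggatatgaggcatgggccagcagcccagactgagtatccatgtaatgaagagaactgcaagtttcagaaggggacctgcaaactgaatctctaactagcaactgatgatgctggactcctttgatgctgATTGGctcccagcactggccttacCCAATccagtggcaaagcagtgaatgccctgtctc
H2-Aa had 1 such match, 48 bases before the start, and H2-Eb1 had 2, at 59 and 35 bases before the start. On either strand, CCAAT was found in 7 of the 13 promoters on file for the list (53.8%; the 13 belong to 10 of its 15 genes) and in 33.8% of all 32851 promoters of the same length.

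MHC class I genes, which present peptides to CD8+ T cells, did not follow class II. Of 11 tested, 6 rose and none fell, with a median log2 change of 0.38, and 3 rose without wild-type replicate 3 or 4. H2-D1, a class I heavy chain, was at 1321, 1496 and 1144 TPM in Terc-/-, against 817, 627 and 648 TPM in wild type, a log2 change of 0.96 ± 0.16. Tap2, a subunit of the peptide transporter for class I, rose by 0.82 ± 0.20. The groups did not overlap for either gene. These were the 2 members called in every setting.

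Within the osteoclast program, most of the receptor and signalling genes tested were called higher, and most of the resorption genes were not called. Of 19 receptor and signalling genes tested, 11 rose and none fell, and the median log2 change was 0.49. Trem2, a receptor that signals through DAP12 to support osteoclast formation, was at 1126, 1137 and 1000.0 TPM in Terc-/-, against 502, 421 and 368 TPM in wild type, a log2 change of 1.38 ± 0.20 (limma adjusted p = 1.3e-05). Fcer1g, the Fc receptor gamma chain that carries co-stimulatory signals, was at 1322, 1222 and 1128 TPM in Terc-/-, against 764, 499.7 and 504 TPM in wild type, a log2 change of 1.12 ± 0.24. Syk, the kinase downstream of both adaptors, was at 119.8, 105 and 125 TPM in Terc-/-, against 53.8, 83.9 and 87.2 TPM in wild type, and rose by 0.70 ± 0.14. The groups did not overlap for any of these 3 genes, which were the 3 called in every setting.

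Of 22 resorption genes tested, 5 rose and 1 fell, 2 and 1 in every setting, with a median log2 change of 0.02, and 3 rose without wild-type replicate 3. The list summed to 16582, 19349 and 16757 TPM in Terc-/-, against 19423, 16313 and 18882 TPM in wild type, and the groups overlapped. Slc4a2, the chloride-bicarbonate exchanger of the basolateral membrane, was at 180.4, 194 and 210.0 TPM in Terc-/-, against 80.4, 95.7 and 106 TPM in wild type, a log2 change of 1.08 ± 0.16 (limma adjusted p = 2.4e-05). Plekhm1, which is needed for lysosomes to fuse at the ruffled border, was at 51.9, 50.4 and 52.7 TPM in Terc-/- and 21.9, 30.1 and 35.2 TPM in wild type, and rose by 0.87 ± 0.15. Mmp14, a membrane-bound collagenase, was at 144, 180.1 and 236 TPM in Terc-/-, against 335, 428 and 439 TPM in wild type, and its log2 change was -1.08 ± 0.18. None of the 3 had overlapping groups.

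Transcription factors and fusion genes rose in part. Of 14 osteoclast transcription factors tested, 5 rose and none fell (median log2 change 0.27), and 2 rose without wild-type replicate 3. Junb, an AP-1 subunit, was at 213, 242 and 227 TPM in Terc-/-, against 149.9, 120.4 and 122 TPM in wild type, and rose by 0.83 ± 0.15. Esrra, a nuclear receptor that drives mitochondrial genes, rose by 0.84 ± 0.17. Nfatc1 was at 46.1, 37.9 and 51.1 TPM in Terc-/-, against 31.3, 36.0 and 46.5 TPM in wild type, and its groups overlapped (log2 change 0.29 ± 0.19, limma adjusted p = 0.28). Of 13 fusion genes tested, 4 rose and 1 fell (median 0.23), and 2 rose in every setting, as few as without Terc-/- replicate 3 or 4 or wild-type replicate 3 or 4. Adam8, a membrane protease that promotes osteoclast fusion, was at 967, 839.9 and 843 TPM in Terc-/-, against 282, 342 and 301 TPM in wild type, a log2 change of 1.55 ± 0.14 (limma adjusted p = 6.52e-08). Sirpa, the receptor for CD47 in macrophage fusion, was at 684, 647 and 609.8 TPM in Terc-/-, against 258, 330.5 and 339 TPM in wild type, and rose by 1.11 ± 0.15. Dcstamp, which is required for fusion, did not pass the test, with a log2 change of 0.27 ± 0.30 (limma adjusted p = 0.539).

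Genes that restrain osteoclast formation and genes of the sealing zone also moved in part. Of 13 negative regulators tested, 5 rose and 1 fell (median log2 change 0.43), 3 and 1 in every setting, and 3 rose without Terc-/- replicate 1 or 3 or wild-type replicate 3 or 4. Bcl6 and Irf8 are transcription factors that repress osteoclast genes. Bcl6 was at 31.4, 24.3 and 24.5 TPM in Terc-/-, against 12.7, 18 and 20.1 TPM in wild type, and rose by 0.68 ± 0.14. Irf8 rose by 0.43 ± 0.10, and the groups overlapped for neither gene. Tnfrsf11b, the RANKL decoy osteoprotegerin, was at 5.95, 6.78 and 9.94 TPM in Terc-/-, against 13.2, 17.3 and 23.2 TPM in wild type, a log2 change of -1.10 ± 0.26. Of 14 podosome genes tested, 5 rose and 2 fell (median 0.40), 3 and 1 in every setting. Ptk2b, the kinase Pyk2, rose by 0.55 ± 0.08, Rac2, a small GTPase of blood cells, by 1.00 ± 0.16, and Fermt3, an integrin activator, by 0.75 ± 0.12. Cttn, which binds branched actin, was at 37.8, 43.3 and 61.8 TPM in Terc-/-, against 74.9, 131 and 126 TPM in wild type, a log2 change of -1.15 ± 0.15.

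Secreted factors that link resorption to bone formation went in both directions. Of 11 tested, 3 rose and 4 fell, with a median log2 change of -0.21, and 2 of the rises and all 4 falls were called in every setting. Igf1, a growth factor for osteoblasts, was at 372, 343 and 325 TPM in Terc-/-, against 95.0, 89.4 and 69.1 TPM in wild type, a log2 change of 2.07 ± 0.24 (limma adjusted p = 1.57e-06). Cthrc1, a secreted protein that osteoclasts make and that acts on osteoblasts, was at 2.41, 3.5 and 4.13 TPM in Terc-/-, against 28.9, 45.2 and 77.9 TPM in wild type, a log2 change of -3.43 ± 0.31 (limma adjusted p = 4.48e-08). Wnt10b, a Wnt ligand, was at 0.826, 0.823 and 1.73 TPM in Terc-/-, against 2.57, 4.36 and 5.59 TPM in wild type, a log2 change of -1.21 ± 0.17. Efnb2, the ephrin by which osteoclasts signal to osteoblasts, changed by -1.05 ± 0.22. Neither the rise of Igf1 nor the 3 falls involved overlapping groups.

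Among lipid, lysosomal and iron-handling genes, more were called higher than lower. Of 13 lipid uptake and storage genes tested, 9 rose and 1 fell, with a median log2 change of 0.70, and 6 and 1 did so in every setting. Nr1h3, the oxysterol receptor LXR alpha, was at 15.1, 22.9 and 13.2 TPM in Terc-/-, against 3.98, 3.81 and 4.19 TPM in wild type, a log2 change of 1.84 ± 0.29. Fabp4 and Fabp5, fatty acid carriers of macrophages and adipocytes, rose by 1.36 ± 0.26 and 0.96 ± 0.19. Plin2, which coats lipid droplets, was at 570.3, 594 and 603 TPM in Terc-/-, against 368, 439.7 and 384 TPM in wild type, and rose by 0.61 ± 0.14. For all 4 genes every Terc-/- library was above every wild-type library. Of 26 lysosomal genes tested, 10 rose and none fell (median 0.25), 4 of them in every setting. Ctsb, the protease cathepsin B, was at 2919, 2843 and 2656 TPM in Terc-/-, against 1466, 1435 and 1423 TPM in wild type, a log2 change of 1.00 ± 0.12 (limma adjusted p = 1.51e-06). Ctsa, a carboxypeptidase, rose by 0.85 ± 0.11, and Laptm5, a lysosomal membrane protein of blood cells, by 0.90 ± 0.12. Of 13 iron and metal genes tested, 4 rose and 1 fell (median 0.32), 3 and 0 in every setting. Hmox1, which degrades haem, was at 2375, 2117 and 2395 TPM in Terc-/-, against 1003, 1108 and 865 TPM in wild type, a log2 change of 1.25 ± 0.19. The metal transporters Slc11a1, of phagosomes, and Slc11a2, of endosomes, rose by 1.30 ± 0.17 and 0.71 ± 0.14.

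Among cholesterol synthesis genes, more were called lower than higher. Of 21 genes of the pathway tested, 8 fell and 1 rose, 6 fell in every setting and the median log2 change was -0.37. Hmgcs1, the synthase that commits carbon to the pathway, was at 28.7, 30.8 and 38.0 TPM in Terc-/-, against 50.9, 73.1 and 74.4 TPM in wild type, a log2 change of -0.95 ± 0.17 (limma adjusted p = 0.000156). Idi1, which isomerises isopentenyl diphosphate, was at 18.9, 19.5 and 19.6 TPM in Terc-/-, against 33.2, 37.7 and 39.9 TPM in wild type, a log2 change of -0.86 ± 0.17. Cyp51, which removes a methyl group from lanosterol, was at 18.5, 17.7 and 20.2 TPM in Terc-/-, against 28.0, 36.2 and 39.1 TPM in wild type, a log2 change of -0.79 ± 0.13. The groups did not overlap for these genes and the Terc-/- libraries were close to each other. The whole list summed to 569.9, 571 and 613 TPM in Terc-/-, against 727, 852 and 863 TPM in wild type.

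The promoters of Hmgcs1 and Idi1 are shown for the same reason, since genes of this pathway are known to be switched on by SREBP together with the CCAAT-binding factor NF-Y. Both lie on the plus strand, at chr13:119690101-119690350 and chr13:8885356-8885605, from RefSeq (GRCm38.p6), 5′ to 3′, with CCAAT or ATTGG in capitals.
Hmgcs1: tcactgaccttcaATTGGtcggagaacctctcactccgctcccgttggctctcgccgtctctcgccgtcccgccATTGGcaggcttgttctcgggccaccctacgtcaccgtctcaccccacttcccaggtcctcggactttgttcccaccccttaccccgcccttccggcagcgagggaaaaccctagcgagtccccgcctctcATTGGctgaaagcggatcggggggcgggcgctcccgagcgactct
Idi1: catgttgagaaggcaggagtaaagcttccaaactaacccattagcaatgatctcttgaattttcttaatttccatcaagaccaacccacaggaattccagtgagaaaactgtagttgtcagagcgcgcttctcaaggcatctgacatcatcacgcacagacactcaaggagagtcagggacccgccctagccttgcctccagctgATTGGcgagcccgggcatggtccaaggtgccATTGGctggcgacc
Hmgcs1 had 3 matches, at 237, 176 and 45 bases before the start, and Idi1 had 2, at 45 and 14 bases. CCAAT was found in 15 of the 18 promoters on file for the pathway (83.3%, from 15 of its 21 genes), beside the 33.8% of all promoters given above. A match is a description of the letters and not a test of binding.

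**Figure D2:**
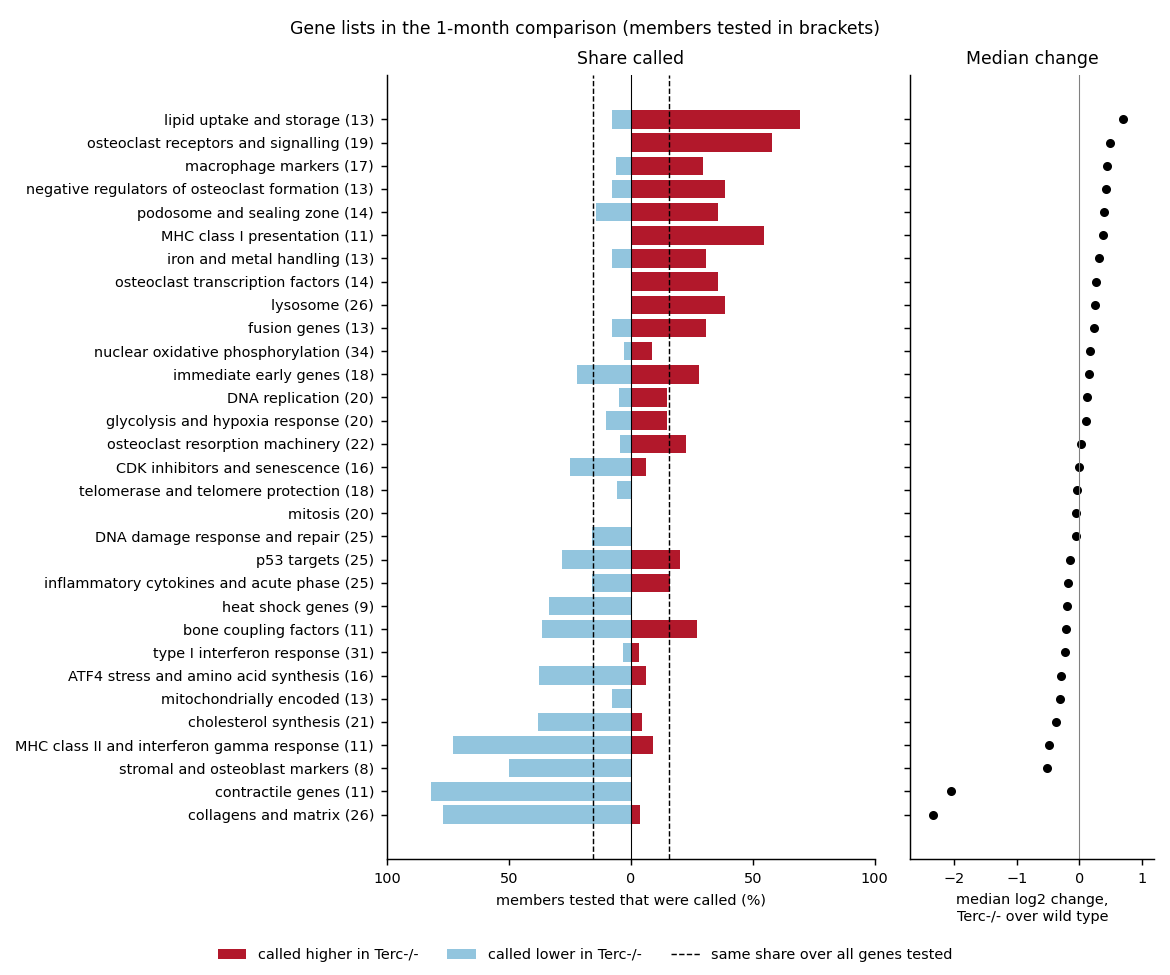
Left, the percentage of tested members of each gene list called higher in Terc-/- (red, to the right) or called lower (blue, to the left), with dashed lines at the 15.5% found in each direction over all genes tested; right, the median log2 change of each list, Terc-/- over wild type. Lists with at least 8 tested members are shown, from lipid uptake and storage at the top (median 0.70) to collagens and matrix at the bottom (-2.34).

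Inflammatory genes did not move as a group at 1 month. Of 25 cytokine and acute phase genes tested, 4 rose and 4 fell, with a median log2 change of -0.18, and 1 rise and 3 falls were called in every setting. The rises numbered 2 without Terc-/- replicate 3 and 1 without wild-type replicate 4. Ptgs2, the inducible cyclooxygenase, was at 26.0, 20.8 and 55.8 TPM in Terc-/-, against 144, 396 and 393 TPM in wild type, a log2 change of -3.10 ± 0.35 (limma adjusted p = 7.66e-07). Il6, a cytokine that promotes bone loss, was at 1.34, 1.21 and 1.38 TPM in Terc-/-, against 6.86, 9.85 and 10.1 TPM in wild type, a log2 change of -2.03 ± 0.32. Il1b, the cytokine interleukin 1 beta, was at 6.94, 7.26 and 19.6 TPM in Terc-/-, against 81.9, 72.8 and 44.1 TPM in wild type, a log2 change of -2.52 ± 0.51. The 3 falls were without overlap, and Terc-/- replicate 4 was the highest Terc-/- library for each. Tnf went the other way, at 91.5, 84.4 and 90.5 TPM in Terc-/-, against 44.0, 34.4 and 22.8 TPM in wild type, a log2 change of 1.45 ± 0.26. Of 31 type I interferon genes tested, 1 rose and 1 fell, neither in every setting, with a median of -0.23.

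Few genes of telomere maintenance, DNA repair and division were called. Of 18 telomerase and telomere protection genes tested, 1 fell and none rose, the fall was not called in every setting, and the median log2 change was -0.03. Without wild-type replicate 1, 3 rose and 1 fell. Tinf2, a member of the shelterin complex that caps telomeres, was at 7.78, 7.35 and 9.51 TPM in Terc-/-, against 9.37, 10.3 and 10.7 TPM in wild type, and did not pass the test (log2 change -0.24 ± 0.11, limma adjusted p = 0.0963). Tert, the protein subunit of telomerase, was under the filter, at 0.0928, 0.0444 and 0.186 TPM in Terc-/- and 0.0625, 0.448 and 0.445 TPM in wild type. Of 25 DNA damage response and repair genes tested, 4 fell and none rose, none in every setting (median -0.06), and without wild-type replicate 1, 3 rose and 2 fell. Of 20 mitosis genes tested, none was called by limma and 0 had an unadjusted p under 0.05. Of 20 DNA replication genes, 3 rose and 1 fell, and the rises numbered 5 without wild-type replicate 1 and 1 without Terc-/- replicate 3 or wild-type replicate 3 or 4. Cdt1, which licenses replication origins, was at 40.3, 42.9 and 42.8 TPM in Terc-/-, against 22.8, 16.3 and 17.4 TPM in wild type, and rose by 1.16 ± 0.17.

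Targets of p53 moved in both directions. Of 25 tested, 5 rose and 7 fell, 2 and 5 in every setting, with a median log2 change of -0.15. Pmaip1, the death-promoting protein Noxa, was at 12.5, 11.3 and 17.6 TPM in Terc-/-, against 40.0, 69.8 and 83.2 TPM in wild type, a log2 change of -2.07 ± 0.19 (limma adjusted p = 6.52e-08). Bbc3, the related protein Puma, was at 12.5, 14.6 and 15.2 TPM in Terc-/-, against 6.24, 4.13 and 6.47 TPM in wild type, and rose by 1.23 ± 0.21. Ccng1, a cyclin, was at 88.8, 81.8 and 108 TPM in Terc-/-, against 118, 207 and 259.6 TPM in wild type, a log2 change of -0.96 ± 0.14, and the kinase Plk2 changed by -1.20 ± 0.20. None of these had overlapping groups. Of 16 genes for CDK inhibitors and senescence, 1 rose and 4 fell, and the 4 falls were called in every setting. The binding proteins Igfbp3 and Igfbp7 changed by -1.78 ± 0.29 and -1.71 ± 0.33, and Cdkn1b, the inhibitor p27, by -0.58 ± 0.12.

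Genes of stress responses, early response and energy supply were called in both directions. Of 16 ATF4 and amino acid synthesis genes tested, 1 rose and 6 fell (median log2 change -0.29), 0 and 3 in every setting. Phgdh, the entry enzyme of serine synthesis, was at 11.9, 15.6 and 25.7 TPM in Terc-/-, against 50.3, 75.2 and 69.8 TPM in wild type, a log2 change of -1.83 ± 0.30. Psph, the last enzyme of that pathway, changed by -0.91 ± 0.16, and Aldh1l2, of mitochondrial folate metabolism, by -2.18 ± 0.43. Of 9 heat shock genes, 3 fell and none rose, with the chaperones Hsp90aa1 and Hspd1 falling by log2 changes of -0.89 ± 0.13 and -0.50 ± 0.09. Of 18 immediate early genes, 5 rose and 4 fell, and 3 rose without Terc-/- replicate 3 or wild-type replicate 4. Atf3, a stress-induced transcription factor, was at 68.6, 82.3 and 77.6 TPM in Terc-/-, against 31.5, 30.3 and 24.0 TPM in wild type, and rose by 1.42 ± 0.21, while Egr1 changed by -1.02 ± 0.21 and Ier3 by -1.63 ± 0.30. Of 34 nuclear oxidative phosphorylation genes, 3 rose and 1 fell (median 0.17), but 11 rose and none fell without wild-type replicate 1. The 2 cytochrome oxidase subunits Cox8a and Cox6a1 rose in every setting, by 1.27 ± 0.26 and 1.27 ± 0.32. Of 13 mitochondrially encoded genes, none rose and 1 fell. Of 20 glycolysis and hypoxia genes, 3 rose, or 1 without wild-type replicate 3 or 4, and 2 fell, and Vegfa, the vessel growth factor, was the 1 called in every setting, at 83.3, 69.6 and 127 TPM in Terc-/- and 169, 287 and 277 TPM in wild type, a log2 change of -1.35 ± 0.19.

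The largest rises under the naming rule, beside Igf1, were scattered over functions. Folr2, a folate receptor of tissue macrophages, was at 104, 91.4 and 55.2 TPM in Terc-/-, against 21.0, 13.4 and 15.2 TPM in wild type, a log2 change of 2.27 ± 0.24 (limma adjusted p = 4.65e-07). Cebpb, a transcription factor of myeloid cells, was at 71.7, 87.1 and 84.8 TPM in Terc-/-, against 20.9, 10.4 and 23.1 TPM in wild type, and rose by 2.20 ± 0.35. Fcho1, which starts clathrin-coated pits, rose by 2.17 ± 0.25, Nptx1, a secreted pentraxin, by 2.12 ± 0.17, Cacna1a, a calcium channel subunit, by 1.95 ± 0.23, and Hpse, the enzyme that cleaves heparan sulfate, by 1.92 ± 0.23. The naming rule required groups without overlap, so their separation for these 6 genes follows from how the genes were picked. Ccl4, a chemokine of macrophages, was at 35.0, 31.1 and 34.0 TPM in Terc-/-, against 10.3, 10.3 and 4.28 TPM in wild type, a log2 change of 1.99 ± 0.54. Without wild-type replicate 4 it changed by 1.56 and lost its call (limma adjusted p = 0.0544). The call was also lost with only the 15 unmarked large-cell libraries in the fit (limma adjusted p = 0.0506). Ighm, the immunoglobulin mu chain and the 1 B cell marker called, was at 8.26, 5.47 and 4.48 TPM in Terc-/-, against 0.911, 1.89 and 1.98 TPM in wild type, a log2 change of 1.46 ± 0.27.

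Some of the largest changes fell on genes whose counts are uncertain. The replication-dependent histone genes Hist2h2aa2, Hist1h4n and Hist1h4m have near-identical copies and, like the RNase P RNA Rpph1, make RNA without a poly(A) tail. Hist1h4m was listed at 0, 0 and 0 TPM in Terc-/-, against 5.41, 12.9 and 29.0 TPM in wild type. Rpph1 was at 31.7, 36.3 and 22.9 TPM in Terc-/-, against 9.25, 3.84 and 3.95 TPM in wild type. Hist2h2aa2 was at 179.8, 233 and 200.4 TPM in Terc-/-, against 50.1, 0 and 38.4 TPM in wild type. Its call was lost in 12 of the 19 settings. Among them were those without Terc-/- replicate 1, 3 or 4 or wild-type replicate 3 (limma adjusted p = 0.0858, 0.103, 0.0794 and 0.31). Hist1h4n was at 8.71, 8.14 and 24.0 TPM in Terc-/-, against 1.48, 5.70 and 0 TPM in wild type, and its call was lost in 3 settings, among them the removal of GC and length trends (limma adjusted p = 0.0663). Tmem254c, a membrane protein gene with close copies, was at 7.32, 6.41 and 17.4 TPM in Terc-/-, against 0, 0.188 and 2.40 TPM in wild type. It lost its call without Terc-/- replicate 4 or wild-type replicate 1 or 3 (limma adjusted p = 0.0761, 0.06 and 0.0667). The call was also lost with one variance per group (limma adjusted p = 0.116).

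**Figure D3:**
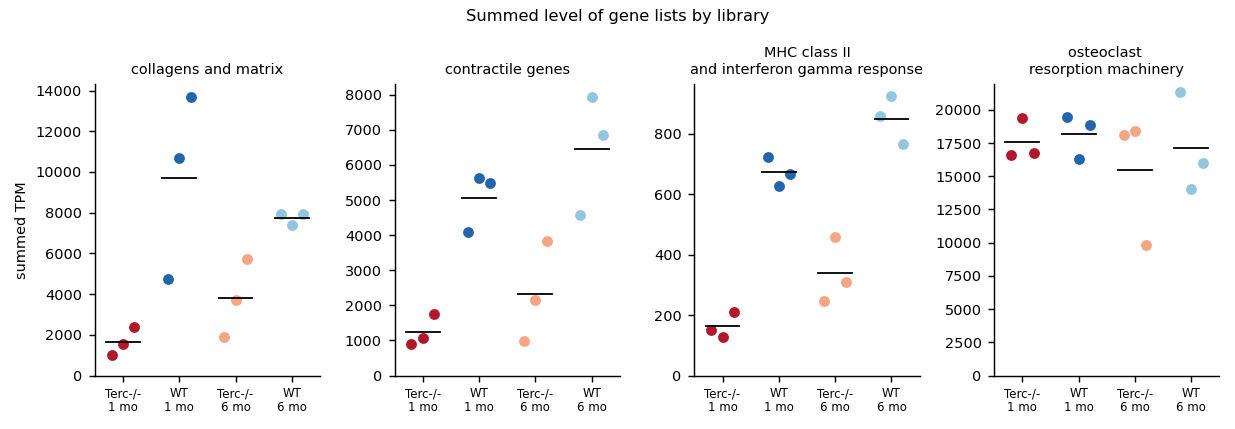
Summed TPM of 4 gene lists in each library, with Terc-/- left of wild type at 1 month and then at 6 months, and a bar at each group mean. The matrix, contractile and MHC class II sums of every Terc-/- library lie below those of every wild-type library of the same age, and the sums of resorption genes overlap.

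At 6 months 3624 genes (28.7%) were called, 1959 higher (15.5%) and 1665 lower (13.2%). The count was 91 with just the 6-month groups in the fit, and 444 with one variance per group. Wild-type replicate 2 of 6 months stood apart from wild-type replicates 1 and 4, with a mitochondrial share of 3.43% against 9.74% and 9.0% and a correlation of its deviations with transcript GC of 0.35 against -0.27 and -0.11, and 3961 genes were called without it. In the same direction at both ages, 1960 genes were called, 1082 higher and 878 lower, and 50 when each age was fitted with its own groups alone. These are 50.3% of the 1-month calls and 54.1% of the 6-month calls, and 54 genes were called in opposite directions. The 6-month count fell to 2404 without Terc-/- replicate 1. The class II and contractile genes were lower at both ages. H2-Aa was at 16.4, 49.8 and 17.0 TPM in 6-month Terc-/- libraries, against 156, 94.9 and 124 TPM in 6-month wild-type libraries, a log2 change of -2.43 ± 0.44, and H2-Eb1 changed by -2.87 ± 0.42. The contractile list summed to 979, 2145 and 3847 TPM in 6-month Terc-/-, against 4580, 7942 and 6844 TPM in wild type, with a median log2 change of -1.92. The largest changes that were called the same way at both ages included Fhl1, a LIM protein of muscle, at -3.12 ± 0.33 at 1 month and -2.80 ± 0.33 at 6 months, Pla1a, a phospholipase, at -3.06 ± 0.29 and -2.59 ± 0.29, and Acta1, skeletal muscle actin, at -2.63 ± 0.43 and -2.54 ± 0.43. Among the rises, Folr2 changed by 2.21 ± 0.24, Trem2 by 1.16 ± 0.20, Adam8 by 1.28 ± 0.14, Igf1 by 1.38 ± 0.24 and Ctsb by 0.69 ± 0.12 at 6 months, all called.

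The genotype change differed between the ages, by the test of the difference itself, for 472 genes (3.74%), 103 more positive at 1 month (0.817%) and 369 more negative (2.93%). The genotypes differed in sex pattern at 1 month and not at 6 months. Age and sex pattern therefore cannot be told apart in any of these differences. This count was 303 without Terc-/- replicate 1 of 1 month, 281 without Terc-/- replicate 3, 878 without wild-type replicate 1 and 275 without wild-type replicate 3 of that age, and it was 1591 without 6-month wild-type replicate 1 and 303 without 6-month Terc-/- replicate 4. Crabp2 was at 7.69, 12.3 and 13.1 TPM in 6-month Terc-/- libraries, against 37.6, 55.4 and 27.3 TPM in 6-month wild-type libraries. It fell at both ages, and the change at 1 month minus that at 6 months was -4.23 on the log2 scale (limma adjusted p = 5.4e-05). Mfap5 also differed, with a change of -0.88 at 6 months that was not called. The matrix list as a whole had a median log2 change of -1.16 at 6 months, with 3 of 26 genes higher and 17 lower, and 7 of the 26 passed the test of the difference.

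Other genes turned between the 1-month and the 6-month comparison. Ly6a, the stem cell antigen Sca-1, was at 36.1, 33.1 and 31.1 TPM in Terc-/-, against 199, 167 and 202 TPM in wild type at 1 month, a log2 change of -2.42 ± 0.25. At 6 months it was at 93.4, 167 and 205 TPM in Terc-/-, against 38.3, 25.2 and 33.6 TPM in wild type, a log2 change of 2.04 ± 0.25, and the difference was -4.46 ± 0.36 (limma adjusted p = 1.57e-08). The groups did not overlap at 1 month, which the naming rule required, nor at 6 months, and they lay in opposite orders. Il6 was at 19.7, 27.2 and 43.0 TPM in 6-month Terc-/-, against 7.46, 5.53 and 6.22 TPM in 6-month wild type, a log2 change of 1.88 ± 0.32, also called in the opposite direction (difference -3.91 ± 0.45, limma adjusted p = 6.64e-06). Cck, the peptide cholecystokinin, was at 6.75, 1.35 and 5.31 TPM in Terc-/-, against 34.4, 48.8 and 20.1 TPM in wild type at 1 month, and at 6.00, 3.55 and 15.6 TPM in Terc-/-, against 0, 0.151 and 0.520 TPM in wild type at 6 months. Its log2 changes were -2.74 ± 0.44 and 2.67 ± 0.44. Cxcl3, a chemokine that draws neutrophils, changed by -1.99 ± 0.52 at 1 month and 2.67 ± 0.52 at 6 months, and its call at 1 month was lost with only the 15 unmarked libraries in the fit (limma adjusted p = 0.0506). Of the 25 cytokine and acute phase genes, 18 were higher and 1 lower in Terc-/- at 6 months, with a median of 1.44, and 15 passed the test of the difference. Of the 21 cholesterol genes, 5 were higher and 2 lower at 6 months (median 0.08), and 5 passed that test, among them Hmgcs1, with a 6-month change of 0.08 and a difference of -1.03 ± 0.24 (limma adjusted p = 0.0138).

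**Figure D4:**
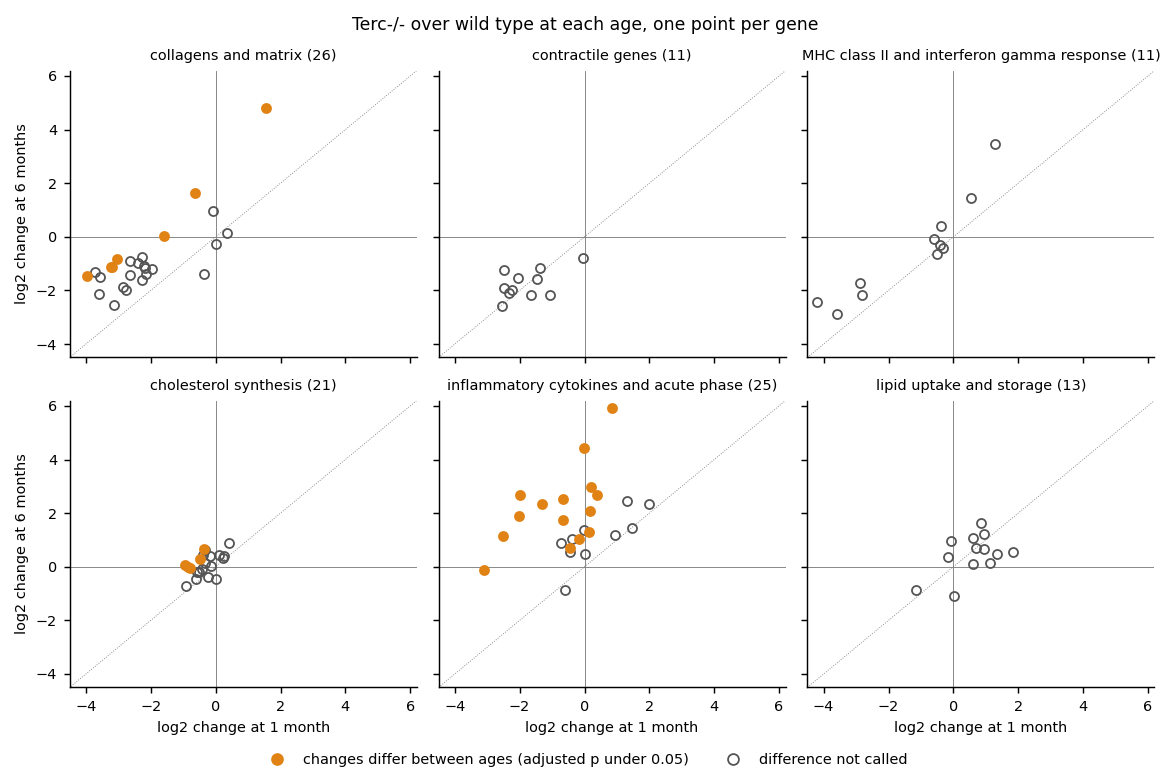
Log2 change, Terc-/- over wild type, at 1 month (horizontal) and at 6 months (vertical), 1 point per gene for 6 gene lists, with filled orange points where the changes differ between ages and a dotted line of equal change. The contractile genes lie below 0 at both ages, while most inflammatory genes lie above the line, with a median of -0.18 at 1 month and 1.44 at 6 months.

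The 1-month differences also followed the base composition of the transcripts. Over the 12565 tested genes with a GC value, Spearman's rho between log2 change and transcript GC was 0.42 at 1 month, across genes, which are not independent replicates, and 0.12 at 6 months. In the tenth of genes with the lowest GC, 2.70% were called higher in Terc-/- and 30.5% lower, and in the tenth with the highest GC 41.5% were called higher and 9.86% lower. The 3 Terc-/- libraries leaned toward GC-rich transcripts (rho of their deviations 0.20, 0.31 and 0.18), and wild-type replicates 3 and 4 leaned away from them (-0.38 and -0.36), with wild-type replicate 1 near 0 (-0.02). With the GC and length trends of each library removed, 3499 genes were called, 1498 higher and 2001 lower, and 2560 of the 3900 calls (65.6%) were kept. The matrix list then had 20 genes lower and a median of -2.54, the contractile list 10 lower and -2.16, and the cholesterol list 11 lower and -0.38. The lipid list had 8 higher and a median of 0.92, the receptor list 12 higher, 1 lower and 0.42, and the podosome list 3 higher, 3 lower and 0.15. The list of factors linking resorption to bone formation had 2 higher, 6 lower and a median of -0.53, that of CDK inhibitors and senescence 0 higher, 5 lower and -0.36, and that of immediate early genes 3 higher, 5 lower and -0.06. Beside the histone genes Hist2h2aa2 and Hist1h4n, every called gene named for the 1-month comparison kept its call with these trends removed.

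**Figure D5:**
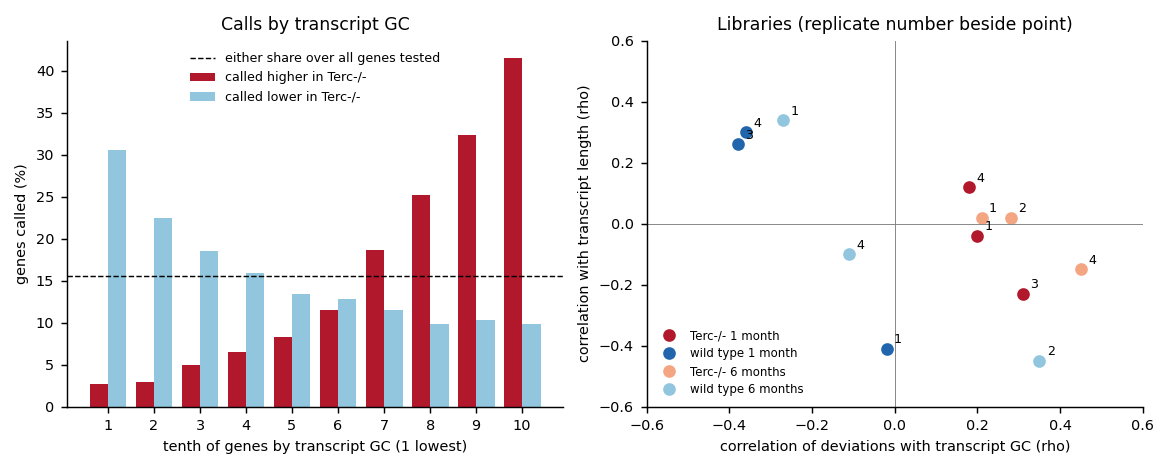
Left, the percentage of genes called higher (red) or lower (blue) in Terc-/- at 1 month in equal groups of genes ordered by transcript GC, 1 lowest and 10 highest, with a dashed line at 15.5%. Right, Spearman's rho of each library's deviations with transcript GC (horizontal) and with transcript length (vertical), where the 3 Terc-/- libraries of 1 month lie right of the 3 wild-type libraries of 1 month.

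The called genes were spread over all chromosomes. Over the autosomes 31.0% of tested genes were called, and single autosomes ranged from 26.9% on chromosome 13 to 37.3% on chromosome 15. On the X chromosome 31.9% were called, 40 genes higher (10.2%) and 85 lower (21.7%), beside 15.5% each way over all genes tested. Chromosome 3 (8.20% higher, 21.7% lower) and chromosome 18 (9.80% and 22.3%) were split alike. Of 5 X-linked genes known to escape inactivation, 4 were called lower, 2 of them in every setting, with a median log2 change of -0.78. On the Y chromosome 4 of 7 were, all higher in Terc-/-. By distance from Terc on chromosome 3, the called share was 21 of 97 (21.6%) within 5 Mb, 37 of 144 (25.7%) at 5 to 10 Mb, 30 of 77 (39.0%) at 10 to 20 Mb, 42 of 121 (34.7%) at 20 to 40 Mb and 63 of 207 (30.4%) farther away. Some genes named above lie near Terc, with positions relative to it of -0.175 Mb for Hist2h2aa2, -0.915 Mb for Ctsk, 1.899 Mb for Phgdh and -8.466 Mb for Crabp2. The part of this position in their changes was not tested.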

How the data were processed

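Gene expression was deposited as 5 tables of 45706 genes over 30 libraries. No file header names a unit, but each library sums to 1000000, so the values deposited by the authors were read as TPM (transcripts per 1000000), which are scaled for gene length and library total and keep no read depth. HTSeq and mm10 are named in the submitters' processing notes. The aligner, annotation, versions and strand setting are not given in the sources used here. Per the labels' protocols, RNA was purified on oligo(dT) beads and sequenced on an Illumina instrument. As depth is unknown, no counting intervals are given. Gene IDs were matched to GENCODE vM21 on mm10 for 45143 of the 45706 genes.

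Each library was rescaled by a trimmed mean of its log ratios to a common library, unweighted, after dropping 30% of the ratios and 5% of the levels from either tail. The scaled TPM plus 1 was taken to log2 and tested with limma 3.58.1 (trend and robust moderation) in R 4.3.3, for the 12614 genes whose average over the 30 libraries was 1 TPM or more. The fit held 10 group means, so all 30 libraries gave 1 estimate of spread. Contrasts were Terc-/- minus wild type at 1 month, at 6 months, and the difference of these. P-values were adjusted by the Benjamini-Hochberg method over all 12614 genes. The fit was tested on simulated data. Tables were made with pandas 2.3.3 and plots with matplotlib 3.10.9 in Python 3.11.15.

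Gene lists are described by counts and medians without a set test. The members and lists were chosen with earlier results of these data known. The genes named were Terc, the 12 largest rises and 12 largest falls reaching a mean of 5 TPM in either group, with no overlap between groups, up to 4 members of each list by p at 1 month, members of 4 osteoclast lists, and the 6 largest changes shared by or differing between ages. Some genes that meet this rule are not reported here. Cd3e and Tert were named after their values were seen. A list meant to hold genes beside Terc was dropped, because its members were neighbours on the human map, and distances on mouse chromosome 3 were used instead. Alternatives covered scaling, pseudocount, filter, variance model, the libraries in the fit, the replicate block, and, chosen after the data were seen, GC and length trends and 2 further choices of libraries.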

Additional observations from a re-analysis of the deposited data

Results flagged for a closer look

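For 29 of the 108 named genes tested, the test of the difference itself found that the genotype change at 1 month was not the change at 6 months (limma adjusted p under 0.05). The share over all genes tested was 3.74%. Some of the 29 were named because their difference was among the largest, so this count follows in part from how genes were picked. Differences are the log2 change at 1 month minus that at 6 months. Xist (-5.93) and Eif2s3y (3.79) are the sex-linked genes already described, and at 1 month the sex pattern and genotype cannot be told apart. Since both 6-month groups had the male pattern, each difference given here mixes age with sex pattern. Among matrix genes and others of the largest falls, the difference was -4.23 for Crabp2, -4.16 for Mfap5, -2.83 for Cd248, -2.49 for Loxl2, -2.12 for Col1a2, -2.07 for Col1a1, -1.79 for Medag and -2.32 for Ccl22. Of these 8 genes, Loxl2, Col1a1, Col1a2, Crabp2, Medag and Ccl22 were called lower at both ages.

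Secreted and signalling genes gave differences of -3.04 for Cthrc1, -1.20 for Wnt10b, -2.96 for Ptgs2, -3.65 for Il1b, -3.91 for Il6, -4.66 for Cxcl3, -5.41 for Cck, -2.14 for Ccr7 and -1.50 for Ier3. Il6, Cxcl3, Cck and Ly6a, the last with -4.46, were called lower at 1 month and higher at 6 months. Cholesterol genes differed by -1.03 (Hmgcs1), -0.85 (Idi1) and -0.74 (Cyp51). The resorption genes Slc4a2 and Mmp14 differed by 1.04 and -1.10, Nptx1 by 1.03 and Ighm by 1.96. The histone genes Hist1h4m and Hist1h4n, whose reads can be split between copies, differed by -6.56 and 2.81.

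Of the 29 differences, 8 kept their call under all 24 alternative settings, namely Crabp2, Mfap5, Il6, Ly6a, Cck, Hist1h4m, Xist and Eif2s3y, and 19 kept it without each single library. The 10 that lost it without at least 1 library were Ccl22, Ccr7, Col1a1, Col1a2, Cyp51, Hist1h4n, Idi1, Ier3, Medag and Mmp14.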

How the results depend on the processing

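The 1-month count of 3900 stayed between 2879 and 4179 when each of the 6 libraries was left out. It was 2589 with only the 2 groups compared in the fit, 2221 with only the 15 unmarked large-cell libraries (an alternative chosen after the data were seen), 5298 without 6-month wild-type replicate 2 in the shared spread, and between 2908 and 3961 under the other settings except the block. Of the 3900 calls, 2430 (62.3%) were kept with only the 2 groups in the fit. The 6-month count of 3624 was 91 with only its groups, 444 with one variance per group, 299 with GC and length trends removed and only its groups, 1751 with the 15 libraries, and 2404 to 5285 without each library. The difference between ages, 472, was 60, 42, 110 and 92 under the same 4 settings and 275 to 1591 without each library. Fewer genes were thus called at 6 months, and between ages, where the spread was not shared with other groups. On TPM as deposited, without scaling, the median over all genes was 0.129 at 6 months and -0.167 for the difference between ages, against 0.016 and -0.015 with scaling, so changes at 6 months are relative to that shift. The list members called at 1 month, 211 in all, numbered 137 with the 15 libraries. The called share of autosomal genes, 31.0%, was 15.3% with no filter, where many silent genes are tested, 20.5% with only the 2 groups and 17.6% with the 15 libraries. No named gene changed direction under any setting, and of 103 called genes 98 kept their call in all 19. With the replicate number as a block the counts were 4557 at 1 month, 4473 at 6 months and 910 for the difference. The deviations of same-numbered libraries correlated at 0.072, -0.335 and 0.293 at 1 month and at 0.271, -0.103 and 0.13 at 6 months. Differently numbered libraries at 1 month ranged from -0.451 to 0.415. With so few values, this cannot decide whether the numbers pair the libraries. Read depth could not be recovered from TPM and limits the low genes by an unknown amount.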
